A study of Mus musculus with 3 samples.

Results

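Broad H3K4me3 regions are stretches of chromatin at least 10 kb wide in which trimethylation of lysine 4 of histone H3 is nearly continuous. They were found in a chromatin immunoprecipitation sequencing (ChIP-seq) map of H3K4me3 by counting reads in 1 kb bins, calling bins with 25 reads or more, and joining called bins across at most 1 uncalled bin. Of 18461 joined regions, 409 spanned 10 bins or more. They made up 2.22% of the regions and 8.79% of the sequence in them, and held 10.7% of the H3K4me3 reads that fell in regions. The members were chosen by their H3K4me3 reads, so their width and H3K4me3 level are given as a description (4740 of their 5066 bins were called, beside 2.45% of all bins with a read in any library).

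The cells were mouse pro-B cells, labelled RAG2-/- Abelson-transformed and of strain C57BL/7, grown in culture. All groups share this genotype and transformation, and they differ in the antibody only. The libraries were made with a laboratory antibody against symmetric dimethylation of arginine 2 (H3R2me2s), a laboratory antibody against H3R2me2sK4me3, in which both modifications are present (here the combined mark), and a commercial antibody against H3K4me3 (Abcam ab8580). There was 1 library per antibody, with 6923765, 7128852 and 13898471 mapped reads in that order. No difference between antibodies therefore has a replicate check or a p-value, and the 95% intervals given are for counting error within a library only. Reads from PCR without molecular identifiers are not independent molecules, and bins of a region are not independent of each other. No input library was used. Whether the culture was a clone is not given in the sources used here, and the cell type was not checked against marker genes because no annotation of mm9 was used.

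H3K4me3 is laid down by SET1 and MLL family methyltransferases and marks the promoters of active genes, where it usually covers a few nucleosomes on each side of the start site. In many cell types a small set of promoters carries a much wider domain, and such domains are known for lying at genes of cell identity and at genes with steady, high transcription. Arginine 2 lies beside lysine 4 on the H3 tail. Its symmetric dimethylation is made by PRMT5 and PRMT7 and is known for favouring binding of WDR5, a shared subunit of the lysine 4 methyltransferase complexes, whereas the asymmetric form hinders it.

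Broad regions were mostly just past the limit of width. The median was 11 kb, 110 regions were exactly 10 kb wide, and 44 reached 16 kb or more. Just outside the limit lay 167 regions of 9 kb. Levels are written as multiples of background, taken from bins with no call of any mark within 5 kb (on average 2.35 H3R2me2s, 1.86 combined-mark and 2.98 H3K4me3 reads). The 9 kb regions had 10.7, 28.3 and 41.6 times background for H3R2me2s, the combined mark and H3K4me3, beside 11.6, 32.1 and 46.3 times in the 10 kb regions. Over all 409 regions the levels were 11.2, 30.3 and 44.5 times background, close to the 11.04, 30.2 and 43.6 times in the 1708 regions of 6 to 9 kb. The difference between these classes was thus mainly in width, and in regions of 2 to 5 kb the levels were lower, at 9.16, 24.3 and 36.5 times. Width and H3K4me3 level were nearly unrelated among the members (Spearman rho 0.003, n = 409 regions of the same library, a description).

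Broad regions lay on every chromosome in the files. Chromosome 11 had the most, at 47 (3.31% of its H3K4me3 regions), followed by chromosome 6 with 30 (3.32%). Chromosome X had 4, or 0.808% of its regions, and chromosome Y had 2 of 13. Neighbouring members on a chromosome were a median of 2677 kb apart, and 35 of 388 neighbouring pairs lay within 50 kb of each other. Another H3K4me3 region lay within 5 kb of 144 members (35.2%), compared with 27.8% of the regions of 6 to 9 kb and 21.3% of those of 2 to 5 kb.

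Both arginine-containing marks were present in nearly every broad region but filled only part of it. At least 1 bin was called for H3R2me2s (15 reads or more) in 408 of 409 members, beside 63.2% of all H3K4me3 regions, and for the combined mark (16 reads or more) in 407 members, beside 68.4%. A wide region has more chances of a call than a narrow one. Of the 1708 regions of 6 to 9 kb, 1676 had a call for H3R2me2s and 1676 for the combined mark, so this presence was shared with the next class. Bin by bin, H3R2me2s was called in 2506 of 5066 bins, or 49.5% (exact interval 48.1 to 50.9), and the combined mark in 2938, or 58.0% (56.6 to 59.4). Over all bins of H3K4me3 regions these shares were 45.6% and 57.1%, and over H3K4me3-called bins alone 46.8% and 58.6%, so the called share of the members lay near that of H3K4me3 chromatin in general. Over all bins with a read in any library, 1.23% were called for H3R2me2s and 1.45% for the combined mark.

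Within the members the calls overlapped strongly. Both arginine-containing marks were called in 2294 bins, the combined mark without H3R2me2s in 644, H3R2me2s without the combined mark in 212, and neither in 1916. Bins with neither call were not empty, with 8.20 H3R2me2s reads and 8.88 combined-mark reads on average. The joined gaps, 326 bins in 236 members, held 6.66 H3R2me2s reads and 6.67 combined-mark reads per bin. Of these gap bins, 7 were called for H3R2me2s and 4 for the combined mark. The share of a member's bins called for H3R2me2s ranged from 0% to 96.3%, with 200 members under 50%, and for the combined mark from 0% to 100%, with 115 members under 50%. It was at least 90% in 4 members for H3R2me2s and in 23 members for the combined mark.

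Single regions show how the marks are arranged. The widest member spans 54 kb at chromosome 11, 3051001 to 3105000 (mm9), and is described with the chromosome Y members further on. Next was a 26 kb region at chromosome 2, 71360001 to 71386000, with 628 H3R2me2s, 1327 combined-mark and 3194 H3K4me3 reads. All of its 26 bins were called for H3K4me3, 21 for the combined mark and 17 for H3R2me2s. In bin 9 of this region all 3 libraries were highest, at 70, 167 and 278 reads in the same order. H3R2me2s fell to 5, 7 and 6 reads in bins 13 to 15, where H3K4me3 held 41, 35 and 36 reads and stayed above its limit. H3R2me2s calls here formed 3 stretches. The unbroken H3K4me3 calls follow from the rule for the members, and at 73 reads, the higher limit used for counting crests below, H3K4me3 formed 2 stretches.

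The 24 kb region at chromosome 18, 15352001 to 15376000, was uneven in another way. In its bins 2 to 4, H3K4me3 had 415, 767 and 452 reads, the combined mark 233, 444 and 187, and H3R2me2s 87, 173 and 86. None of the other bins exceeded 156 H3K4me3 reads, 33 combined-mark reads or 24 H3R2me2s reads in a bin. This region was a tall narrow crest with a long, lower and uneven shoulder on 1 side. Counted as islands, in the way given below, H3R2me2s formed 4, the combined mark 3 and H3K4me3 4.

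The 24 kb region at chromosome 6, 117848001 to 117872000, had 3 crests in each library. Its highest bins held 127 H3R2me2s reads, 285 combined-mark reads and 476 H3K4me3 reads. The H3K4me3 maximum was at bin 21, whereas H3R2me2s and the combined mark peaked at bin 11, where H3K4me3 held 462 reads. The highest bins of the crests coincided, and the order of the crests by height differed. Within the last crest H3K4me3 dipped at bin 20, to 208 reads between 323 and 476. The other 2 libraries rose from bin 19 to bin 21. A 23 kb region at chromosome 8, 87488001 to 87511000, had 4 crests, with 421 H3R2me2s, 821 combined-mark and 2015 H3K4me3 reads in all.

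**Figure D1:**
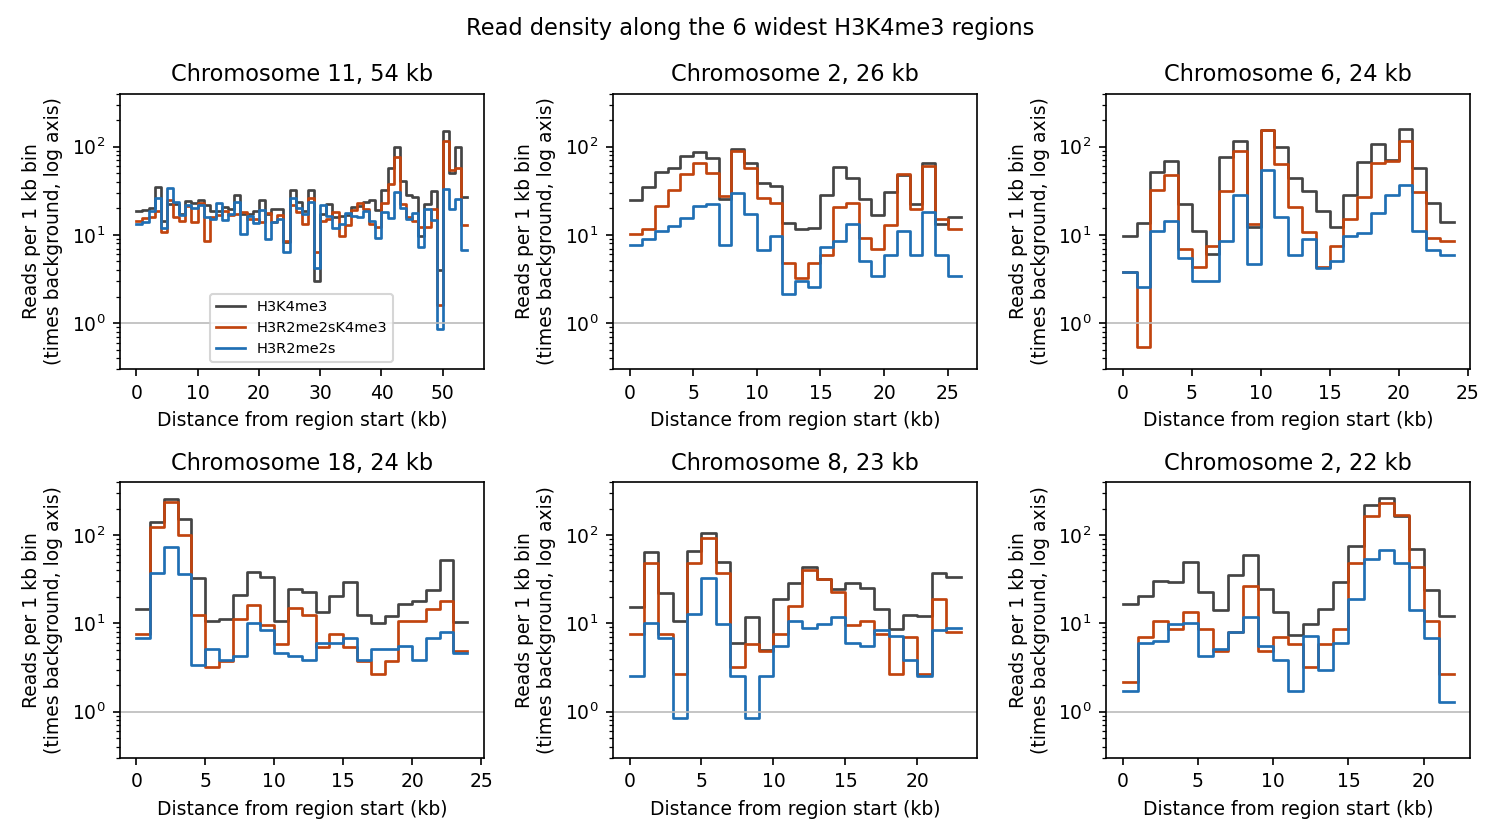
Reads per 1 kb bin as multiples of background (log axis) against distance from the region's start in kb, for the 6 widest members, with H3K4me3 in grey, the combined mark in orange and H3R2me2s in blue. In the 54 kb region on chromosome 11 the curves run close together over most of the length and part at crests toward its end. In bin 51 they stand at 32.7 (H3R2me2s), 114 (combined mark) and 151 (H3K4me3) times background. In the other 5 the marks rise and fall together with H3K4me3 highest over most of the length.

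To count such crests, called bins of each mark were joined across at most 1 uncalled bin into islands within each member. H3K4me3 islands were called at 73 reads, the limit that keeps about as many bins of the members as the H3R2me2s limit does. The combined mark kept its limit of 16 reads, which called 58.0% of the bins against 49.5% for H3R2me2s. Its island counts and widths are therefore not matched to the others in called share. H3R2me2s formed 2 or more islands in 245 of 409 broad regions (59.9%, exact interval 55.0 to 64.7), the combined mark in 193 (47.2%, 42.3 to 52.2), and H3K4me3 at the raised limit in 198 (48.4%, 43.5 to 53.4). Counting error is larger in proportion at the H3R2me2s limit of 15 reads than at 73 reads and can split a run of bins. Its part in the higher H3R2me2s share was not tested. In regions of 6 to 9 kb the shares were 13.6%, 11.1% and 10.4%, and narrower regions leave less room for separate islands. Within the members the share for H3R2me2s was 51.8% at 10 kb, 50.9% at 11 to 12 kb, 72 of 96 members at 13 to 15 kb and 79.5% at 16 kb or more. Ordered by H3K4me3 level into 4 groups, it was 64.1%, 78.4%, 64.7% and, in the most strongly marked group, 32.4%. In the 245 members with 2 or more H3R2me2s islands, H3K4me3 averaged 44.2 reads per bin in the gaps (43.8 to 44.6) and 199 in the islands, and it was lower in the gaps in each of the 245. Of the gap bins, 13.1% reached 73 H3K4me3 reads. When the regions were built with no joining of H3K4me3 bins, 49.1% of the 212 regions left had 2 or more H3R2me2s islands.

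Islands were short in comparison with the regions. The median H3R2me2s island was 3 kb wide and the median combined-mark island 4 kb, and the gaps between islands of a region had a median of 3 kb in both. The longest island of a member had a median of 4 kb for H3R2me2s and 6 kb for the combined mark. Islands of different marks fell together. Of 706 H3R2me2s islands, 623 (88.2%) met an H3K4me3 island at the raised limit, and of 634 combined-mark islands 588 (92.7%) did so. Shared bins made up 86.1% of the H3R2me2s island bins and 87.6% of the H3K4me3 island bins. Of the H3R2me2s islands, 637 (90.2%) met a combined-mark island.

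**Figure D2:**
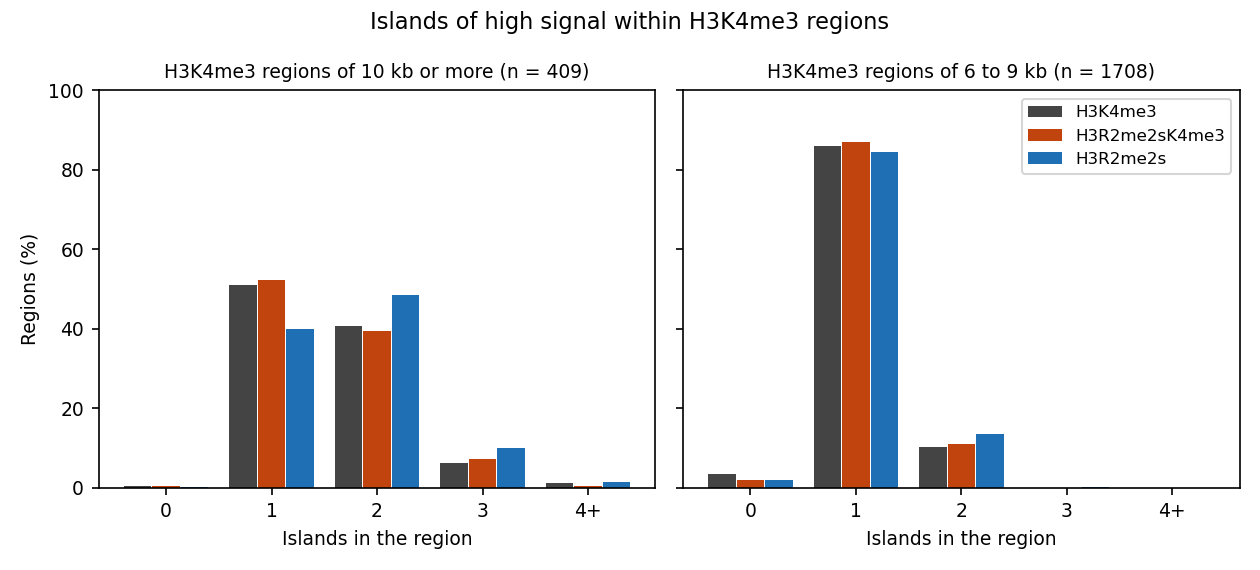
Share of regions (%) with 0, 1, 2, 3 or at least 4 islands, for the 409 broad regions (left) and the 1708 regions of 6 to 9 kb (right); bars stand for H3K4me3 at 73 reads (grey), the combined mark at 16 reads (orange) and H3R2me2s at 15 reads (blue). On the left H3R2me2s has 2 or more islands in 59.9% of regions, and on the right in 13.6%.

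The highest bins of the libraries usually coincided. The H3R2me2s maximum was in the same 1 kb bin as the H3K4me3 maximum in 302 of 409 members (73.8%) and within 1 bin of it in 353 (86.3%). For the combined mark these numbers were 339 (82.9%) and 379 (92.7%), and the 2 arginine-containing marks shared their highest bin in 340 (83.1%). The maxima of H3R2me2s and H3K4me3 were 3 or more bins apart in 46 members. In these the H3K4me3 reads at the H3R2me2s maximum had a median of 0.874 of those at the H3K4me3 maximum, so most were choices between crests of similar height. Reads per bin of H3R2me2s and H3K4me3 within a member had a median Pearson r of 0.947 over its bins, and r was above 0.9 in 318 members. For the combined mark the median was 0.969, with 370 members above 0.9. These correlations are a description over bins of shared position and mappability. The lowest values were in weakly marked members. They were 0.23 for H3R2me2s at chromosome 16, 49766001 to 49776000, where H3K4me3 was 13.5 times background, and -0.03 for the combined mark at chromosome 10, 53725001 to 53735000, where it was 10.5 times background.

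At the ends of broad regions the combined mark faded faster than H3K4me3. The ends were set by H3K4me3 reads, and all libraries were measured in the same bins. In the outermost bin inside the ends H3K4me3 was 18.0 times background, the combined mark 8.97 (8.82 to 9.12) and H3R2me2s 5.004 (4.90 to 5.11). In the next bin they were 40.9, 26.3 and 10.1 times, and in the one after it 52.5, 37.5 and 13.3 times, beyond which the means were flat. Net of background, the combined mark per H3K4me3 read rose from 0.293 in the outermost bin to 0.396 and 0.443 in the next bins. The same value for H3R2me2s was 0.186, 0.181 and 0.189, with no such rise. The combined-mark value also rose with H3K4me3 count over all bins of the members. It went from 0.26 at 25 to 49 H3K4me3 reads to 0.51 from 300 reads. The fading is thus not shown to be a trait of the ends themselves, and bins of matched count are compared further on.

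Summed over the outer 2 bins of each end, net reads per bin were 0.471 of the interior for the combined mark (0.466 to 0.476), 0.548 for H3R2me2s (0.540 to 0.556) and 0.561 for H3K4me3 (0.557 to 0.564). The combined mark had the lowest ratio in each of the 12 other settings tried. H3R2me2s and H3K4me3 were close, and their order turned at an H3K4me3 limit of 20 reads per bin, at 0.505 and 0.498. The regions of 6 to 9 kb had 0.406, 0.464 and 0.499, in the same order of marks, with fewer interior bins. Outside the ends the signal did not return to background. In the second bin outside, H3R2me2s stood at 2.48, the combined mark at 2.70 and H3K4me3 at 3.98 times background, and in the bin 6 kb outside they stood at 2.85, 3.96 and 5.96 times. The joining rule leaves the first 2 bins outside an end uncalled for H3K4me3 and allows called bins only farther out. The low H3K4me3 level beside the ends and its rise farther out are thus partly set by the rule. The members' neighbours within 5 kb, given above, lie in the range of these bins, and their part in the rise was not tested.

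**Figure D3:**
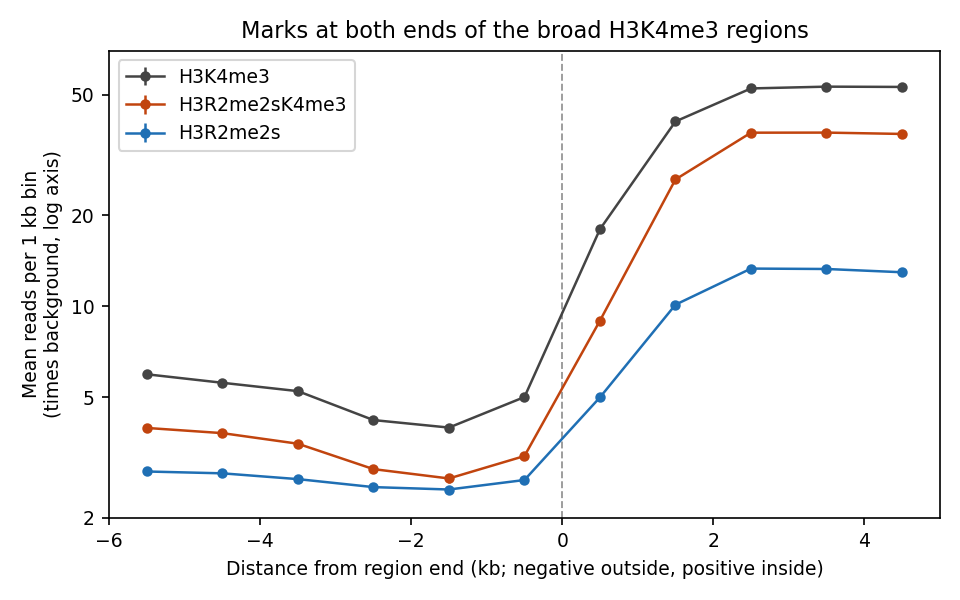
Mean reads per 1 kb bin as multiples of background (log axis) against distance from the region end in kb, averaged over both ends of the 409 broad regions; error bars are exact 95% Poisson intervals and most are smaller than the points. All libraries step up at the end (dashed line), H3K4me3 from 5.02 to 18.0, the combined mark from 3.20 to 8.97 and H3R2me2s from 2.67 to 5.004 times background.

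The marks leaned to the same side of a broad region. With each member divided in the middle, H3R2me2s and H3K4me3 had more reads on the same side in 372 of 409 (91.0%), and the combined mark and H3K4me3 in 381 (93.2%). When members were turned so that the side with more combined-mark reads came first, that side held 66.7% of the H3R2me2s reads (66.5 to 67.0) and 66.7% of the H3K4me3 reads (66.6 to 66.8). The combined mark chose the side, and its own share of 72.2% is a description. In 5 equal segments from that side, H3K4me3 stood at 42.3, 74.5, 50.9, 30.9 and 24.0 times background. H3R2me2s stood at 10.6, 18.9, 12.6, 7.66 and 6.48 times. Net H3R2me2s per net H3K4me3 kept between 0.176 and 0.192 along the segments, so that H3R2me2s followed the lysine mark down the shoulder. The orientation of genes in the members was not analysed here.

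**Figure D4:**
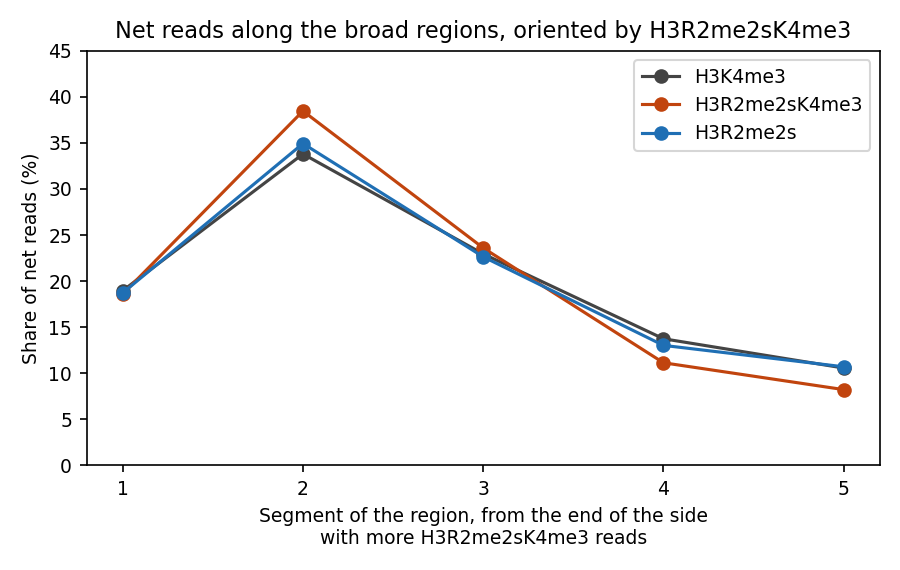
Share of net reads (%) in each of 5 equal segments of the 409 broad regions, counted from the end of the side with more combined-mark reads; lines are H3K4me3 (grey), the combined mark (orange) and H3R2me2s (blue). The second segment is highest in each library, with 33.8% of net H3K4me3 and 34.9% of net H3R2me2s, and the last holds 10.6% and 10.7%.

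At the scale of a nucleosome the libraries also shared their dips. Windows of 200 bp inside the members were taken as dips where H3K4me3 had at most 25% of the mean of the windows around them, with at least 20 reads in that mean. There were 1676 dips in 369 members. H3R2me2s in the dips was 0.175 of its own surroundings (0.168 to 0.181) and the combined mark 0.113 (0.110 to 0.116). In the 9011 other windows these values were 1.16 and 1.18. H3R2me2s was below its surroundings in 98.3% of the dips, against 52.9% of the other windows. With reads not moved, or moved by 150 bp, H3R2me2s in the dips was 0.176 and 0.193. A gap in nucleosomes and sequence on which reads cannot be placed would both empty every library, and they cannot be told apart here.

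Broad regions differed more in their combined mark than in their H3R2me2s. Ratios between libraries were taken in CPM, which is reads scaled to the library's total of mapped reads. Pooled over members, the CPM ratio to H3K4me3 was 0.400 for H3R2me2s (0.398 to 0.403) and 0.828 for the combined mark (0.825 to 0.832). In regions of 6 to 9 kb these were 0.402 and 0.844, and in regions of 2 to 5 kb 0.398 and 0.810, so the H3R2me2s ratio was similar in these 3 classes. Regions of 1 kb differed, with a combined-mark ratio of 0.562 and an H3R2me2s ratio of 0.4675 (0.463 to 0.472). They were weak, at 4.22, 6.61 and 14.3 times background for H3R2me2s, the combined mark and H3K4me3. Background thus makes up more of their reads, and its part in these 2 ratios was not tested. Scaled to background in place of library size, the broad regions' ratios were 0.252 and 0.680. Each antibody has its own, unknown efficiency, and a ratio therefore does not count marked tails. Over single members the H3R2me2s ratio had a median of 0.397, with 90% of members between 0.324 and 0.488. The combined-mark ratio had a median of 0.806, with 90% between 0.545 and 0.988. On the log2 scale the SD between members was 0.23 for H3R2me2s, where counting alone gives 0.10, and 0.27 for the combined mark, where counting gives 0.08. Without the 54 kb and chromosome Y members they were 0.18 and 0.27.

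The combined-mark ratio was higher in strongly marked members. Ordered by H3K4me3 level into 4 groups of 102 or 103 members, the combined-mark ratio was 0.702, 0.787, 0.831 and 0.893. Net of background the values per H3K4me3 read were 0.349, 0.398, 0.422 and 0.456. For H3R2me2s the ratio was 0.459 in the weakest group and 0.394, 0.389 and 0.391 in the others, and the net values were 0.205, 0.179, 0.181 and 0.186. The 54 kb and chromosome Y members all lie in the weakest group. Their pooled ratios, 1.08 for H3R2me2s and 0.975 for the combined mark, raise its values, which were not recomputed without them. Over the 409 members, H3K4me3 level and the combined-mark ratio had a Spearman rho of 0.592, and for the H3R2me2s ratio rho was -0.256. Without these 3 members the values were 0.618 and -0.242. All are descriptions over regions of the same libraries, and the ratio shares the H3K4me3 reads with the level.

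**Figure D5:**
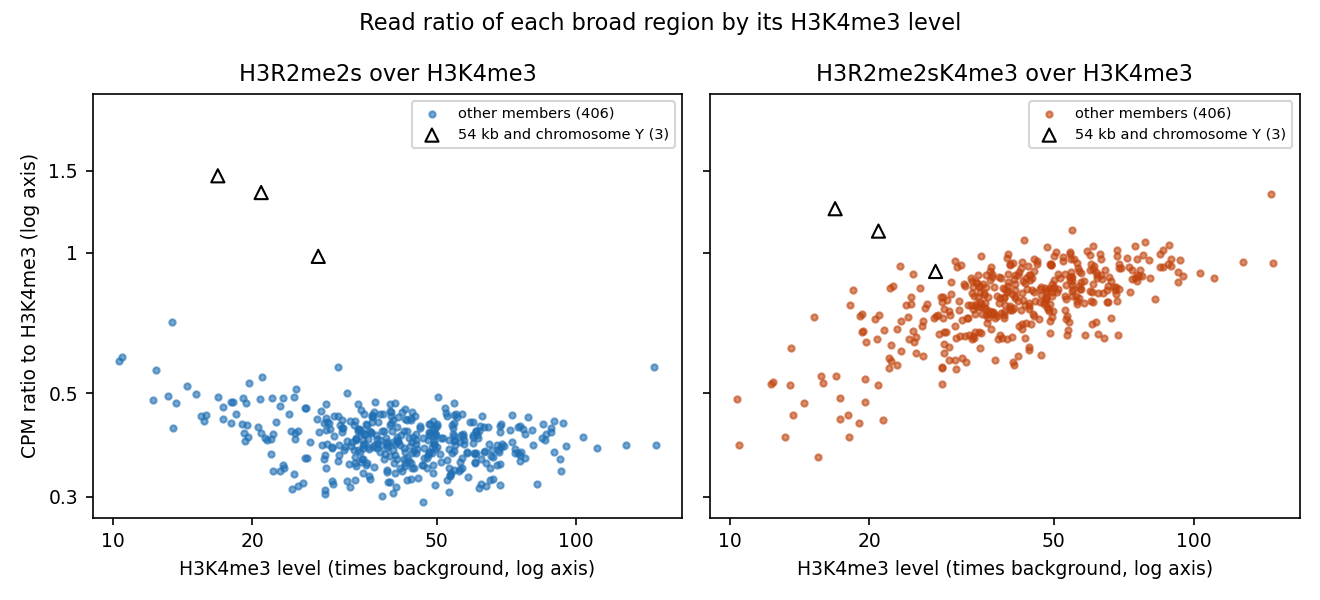
CPM ratio of H3R2me2s (left) and the combined mark (right) to H3K4me3 for each member, against its H3K4me3 level as a multiple of background (both axes log); points are single regions and open triangles the 54 kb and the 2 chromosome Y members. The combined-mark ratio climbs with level (rho 0.592), the H3R2me2s ratio does not, and the triangles lie at the top of the left panel.

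At the extremes of H3K4me3 level stood regions with quite different makeup. The member with most H3K4me3 reads was at chromosome 14, 79914001 to 79925000, with 938 H3R2me2s, 2372 combined-mark and 4861 H3K4me3 reads, or 36.2, 116 and 148 times background. A region at chromosome 11, 11586001 to 11597000, was alike in shape, with 808, 2049 and 4186 reads. In both, each arginine-containing mark formed 1 island, of 9 to 11 of the 11 bins.

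The member at chromosome 12, 114660001 to 114670000, had 1240, 3006 and 4383 reads. Its H3R2me2s ratio of 0.568 (0.533 to 0.605) and combined-mark ratio of 1.34 (1.28 to 1.40) were both high, the second being the highest of all members. The combined-mark ratio was also high at chromosome 17, 35996001 to 36011000, with 1.12 (1.05 to 1.199). The next on an autosome lay at chromosome 6, 51413001 to 51424000, with 1.05 (0.987 to 1.13). Wider regions also ranked high by reads. The 19 kb member on chromosome 3, 60272001 to 60291000, was among the top 5 for H3R2me2s, with 809, 1743 and 4124 reads. A 19 kb member on chromosome 6, 134866001 to 134885000, was among the top 5 for both other marks, with 785, 1915 and 4232 reads.

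At the other extreme were broad regions of weak H3K4me3 with little combined mark. At chromosome 10, 115989001 to 116000000, all 11 bins were called for H3K4me3 (508 reads), with 1 bin called for each arginine-containing mark, and the combined-mark ratio was 0.365 (0.290 to 0.455). A 10 kb region on chromosome 9, 57660001 to 57670000, had a ratio of 0.403 (0.325 to 0.495). For an 11 kb region on chromosome 3, 53079001 to 53090000, it was 0.402 (0.316 to 0.506). Another was 15 kb wide, on chromosome 9, 32311001 to 32326000, with 0.432 (0.367 to 0.506). These 4 regions had between 13.2 and 19.0 times background of H3K4me3, against a median of 41.2 times.

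The members with no called bin of an arginine-containing mark were likewise weak. The combined mark had none at chromosome 10, 53725001 to 53735000 (62 reads over 10 kb), and at chromosome 11, 51742001 to 51754000 (92 reads over 12 kb). H3R2me2s had none at chromosome 4, 59344001 to 59354000 (88 reads over 10 kb). Their mean levels, 3.33, 4.12 and 3.74 times background in that order, were above background, so the marks were not called there but not shown to be absent. Ranked by upper bound, the lowest H3R2me2s ratio was 0.292 (0.257 to 0.331), in the region on chromosome 16, 58496001 to 58510000. Next was 0.301 (0.264 to 0.342), in that on chromosome 8, 81143001 to 81159000. These 2 had 46.8 and 38.2 times background of H3K4me3, on either side of the median of 41.2. Ranking by a bound favours members with more reads. A ratio of 0.303 (0.252 to 0.362) also occurred at chromosome 2, 180171001 to 180182000, where H3K4me3 was 28.7 times background.

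In relation to each other, H3R2me2s and the combined mark had a median CPM ratio of 0.483 over the members. The region on chromosome 14, 32589001 to 32599000, had the lowest, 0.373 (0.335 to 0.415). That on chromosome 11, 83103001 to 83118000, had 0.376 (0.335 to 0.421). Outside the 54 kb and chromosome Y members the highest belonged to weak regions, with 1.54 (1.11 to 2.17) for the one on chromosome 10 that begins at 53725001 and 1.37 (1.06 to 1.77) for the one on chromosome 16 that begins at 49766001. Scaled to background the 2 marks lay closer together. H3R2me2s was 3.95 times background against 3.33 for the combined mark in the first, and 6.03 against 5.75 in the second.

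Bins of equal H3K4me3 count carried less combined mark in broad regions than in narrower ones between 50 and 299 reads. With 100 to 199 H3K4me3 reads (means of 143, 145 and 143), bins of broad regions had 51.2 combined-mark reads (50.7 to 51.7), bins of 6 to 9 kb regions 57.9 (57.6 to 58.3) and bins of 2 to 5 kb regions 58.0 (57.8 to 58.2). With 50 to 99 reads the means were 21.6, 22.9 and 23.4, and with 200 to 299 reads 105, 111 and 114. With 25 to 49 reads they were 10.2, 10.3 and 10.5. From 300 reads the order turned, with net combined-mark reads per net H3K4me3 read of 0.512, 0.502 and 0.498, in bins whose mean H3K4me3 counts differed (450, 423 and 383). For H3R2me2s the means at 100 to 199 reads were 25.01, 26.5 and 26.1. At 200 to 299 reads they were 44.1 (43.5 to 44.7), 45.9 (45.6 to 46.3) and 47.3 (47.1 to 47.6). H3R2me2s was thus also lower in broad regions at these counts. With 25 to 49 reads its means were 9.26, 9.01 and 8.56, highest in broad regions. At 50 to 99 reads they were 15.1, 13.8 and 13.5, and the first fell to 13.8 without the 54 kb and chromosome Y members. Within broad regions, the outer 2 bins of each end and the interior had no constant order at matched counts. At 50 to 99 H3K4me3 reads the outer bins had fewer combined-mark reads, 20.2 (19.7 to 20.6) against 22.3 (21.96 to 22.7), or 20.06 against 21.6 without the 54 kb and chromosome Y members. At 100 to 199 reads they had 50.5 (49.6 to 51.3) against 51.5 (50.9 to 52.0), and at 200 to 299 reads 107 (105 to 110) against 105 (104 to 106). Bins are sorted here by a count with its own error, and no replicate library shows how far these differences repeat.

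The 54 kb region and the 2 members on chromosome Y stood apart from the other 406 by a high H3R2me2s ratio, near or above 1 in CPM. Scaled to background, H3R2me2s was below H3K4me3 in all 3, at 17.2 against 27.8 times background in the 54 kb region and 15.6 against 16.9 and 17.8 against 20.9 times in the others. The 54 kb region had 2189 H3R2me2s, 2092 combined-mark and 4468 H3K4me3 reads, a CPM ratio of 0.983 (0.934 to 1.04) for H3R2me2s. This ratio was not even along the region. Divided in the middle, the first side held 1136 H3R2me2s and 1693 H3K4me3 reads, and the last side 1053 and 2775. At chromosome Y, 2850001 to 2862000, there were 440, 385 and 603 reads, with ratios of 1.46 (1.29 to 1.66) for H3R2me2s and 1.24 (1.09 to 1.42) for the combined mark. At chromosome Y, 2880001 to 2893000, there were 544, 463 and 810 reads, with ratios of 1.35 (1.21 to 1.505) and 1.11 (0.992 to 1.25). The highest H3R2me2s ratio among the other 406 members was 0.711 (0.583 to 0.863), at chromosome 16, 49766001 to 49776000.

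Called for H3R2me2s were 93.7% of the bins of these 3 members, and each was a single island of both arginine-containing marks. The signal was not even in them, and the 2 highest bins held 35.3% of the H3R2me2s reads in the 13 kb member on chromosome Y and 27.5% in the 12 kb one. Pooled over the 3 members, most of whose length is the 54 kb region, net reads at the ends were 0.733 (H3R2me2s), 0.791 (combined mark) and 0.917 (H3K4me3) of those in the interior, compared with 0.549, 0.467 and 0.556 in the other members. The outer bins of the 54 kb region include bin 53, with 297 H3K4me3 reads against 56, 57 and 81 in the others. The part of this bin in the end ratios was not tested, so even ends are not shown to be a trait of the 3 members. The levels of the 3 members were 17.1, 19.99 and 24.99 times background. Of their reads, 6.43%, 4.01% and 9.81% shared position and strand with an earlier read, against 6.45%, 4.70% and 13.1% in the other members. The 54 kb region nevertheless held ordinary crests. In bin 43 there were 73, 143 and 295 reads of H3R2me2s, the combined mark and H3K4me3. Nearer its end, in bin 51, there were 77, 213 and 451. The part of repeated sequence or of a bias common to all libraries in these regions was not tested. Leaving the 3 members out moved the pooled H3R2me2s ratio from 0.400 to 0.394 and the called share of bins from 49.5% to 48.8%.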

How the data were processed

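ChIP-seq reads of 3 libraries, 1 per antibody, were used. Coordinates are mm9, per the submitters' processing notes. The aligner is not given in the sources used here, nor is whether repeats of a read were removed. In the files deposited by the authors every line is a mapped read, so sums over bins are raw counts with no scaling. Reads were shifted downstream by 75 bp and assigned to 1 kb bins. CPM values are these counts divided by the library total. The bins with a read in any library numbered 2285014. Limits of 15, 16 and 25 reads (H3R2me2s, combined mark, H3K4me3) were 4 times the mean or the count with a Poisson upper tail under 1e-06, whichever was higher. Shares have exact Clopper-Pearson intervals, CPM ratios exact binomial ones, means exact Poisson ones, and end-to-interior ratios an approximate interval from Poisson variances.

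Regions were named by rule: the 10 widest, the 5 with most reads per library, the 5 highest (by lower bound) and 5 lowest (by upper bound) CPM ratios, and those with the most and fewest called bins, of which the leading ones are printed. Members and rules were chosen with earlier results of these data known. Islands, dips, segments and level groups were defined after looking at the data. Region calling, ratios and end levels were tested on simulated data. Positions were not matched to genes and no sequence is shown, because no mm9 genome or annotation was used here; the reference tables were for another build. Python 3.11.15, numpy 2.4.6, pandas 2.3.3 and scipy 1.17.1 were used.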

Additional observations from a re-analysis of the deposited data

How the results depend on the processing

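Over 13 other settings, 122 values were recomputed, of which 51 stayed within their counting interval (or within 1.5 times for the number of regions) and 71 moved outside it; the intervals are narrow. The setting without the 54 kb and chromosome Y members, and the island counts under every setting, were chosen after seeing the data. The number of broad regions depended most on the calling rule. It was 409 in the report, 167 at an H3K4me3 limit of 35 reads, 731 at 20 reads, 212 with no joining and 68 at a width of 15 bins or more.

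The share of bins called for H3R2me2s was 47.4% with 1 read kept per position and strand, 61.4% and 42.2% at limits of 35 and 20 reads, 57.6% with no joining, 44.5% with joining across 2 bins, 52.1% at 15 bins or more and 53.4% at equal depth. For the combined mark it was 71.0% and 48.7% at limits of 35 and 20 reads, 67.6% with no joining, 52.2% with joining across 2 bins and 62.1% at equal depth.

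The H3R2me2s ratio was 0.426 with 1 read per position and strand, 0.398 and 0.411 at 35 and 20 reads, 0.395 and 0.406 with joining across 0 and 2 bins, 0.404 with bins starting at 500, 0.410 at 15 bins or more, 0.394 at equal depth, 0.394 without the 54 kb and chromosome Y members, and 0.252 scaled to background. The combined-mark ratio was 0.877, 0.841, 0.820, 0.845, 0.821 and 0.833 in the first 6 of these settings, 0.824 at equal depth and 0.680 scaled to background.

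For the ends over the interior, H3R2me2s had 0.557 with reads not moved, 0.556 with reads moved 150 bp, 0.598 and 0.505 at 35 and 20 reads, 0.477 and 0.603 with joining across 0 and 2 bins, 0.560 with bins starting at 500, 0.486 at 15 bins or more and 0.579 at equal depth. In the same order the combined mark had 0.480, 0.486, 0.544, 0.417, 0.406, 0.527, 0.482, 0.410 and 0.512, and 0.479 with 1 read per position and strand. H3K4me3 had 0.568, 0.577, 0.639, 0.498, 0.494, 0.624, 0.574, 0.516 and 0.607, with 0.591 for 1 read per position and strand and 0.556 without the 54 kb and chromosome Y members. The cause of these moves was not tested.

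The share of members with 2 or more H3R2me2s islands lay between 49.1% and 79.4% over the settings, and for the combined mark between 34.9% and 64.7%. No paired analysis was possible because a single library stood for each antibody, so leaving a library out was not possible either. At equal depth each library had 6923765 reads and the H3K4me3 limit was 15 reads.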
